A study of Mus musculus with 3 samples.

Results

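CD8 T cells taken from mice that carry hemagglutinin (HA) in the gut were compared between 2 of the 3 arrays of this mouse series, chosen by their source names. One source name is VILLIN-HA/CL4-TCR, the other Villin-HA + CL4-TCR. The remaining array, CL4-TCR, is given beside them and enters no count of differences. Each of these groups holds 1 array, hybridised with labelled RNA made from 6 µg of total RNA of CD8 T cells from MLN, which is read here as the mesenteric lymph node. In all of them the T cells carry the CL4 T cell receptor, a transgene that makes CD8 T cells recognise HA, an influenza virus protein. The CL4-TCR group carries that receptor alone. The other groups add an HA transgene under the villin promoter, which is active in gut epithelial cells. The source names join the parts once with a slash and once with a plus sign. These signs may stand for different ways of bringing the T cells and the HA transgene together. The submitters' design names CD8 T cells without a qualifier, activated ones and regulatory ones, the latter kinds formed in the animal. No label ties the words activated or regulatory to either HA group. Apart from the labels, the study is known to have obtained its suppressive cells from double-transgenic mice. The labels give neither strain, age and sex nor the number of mice behind an array or whether animals were pooled.

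A CD8 T cell that meets its antigen with inflammation and costimulation divides and becomes a cytotoxic effector, which carries granzymes and perforin in granules and secretes interferon gamma. A cell that meets antigen as a lasting self protein can instead be deleted, become unresponsive (anergy) or take on a regulatory state, often with raised inhibitory receptors and with transcription factors of the Egr and Nr4a families. The gut is a site where such tolerance to harmless antigens is common, and the mesenteric lymph node is where antigen from the gut is first presented to T cells.

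Signals are the deposited MAS5 values, on a linear scale with no unit. A gene is represented by its probe set with the highest mean signal over the 3 arrays. Signals under a floor of 31.7, the median of all values, were raised to it before a ratio was taken, and a gene counts as measured where either array lay above it. Differences are the log2 signal on VILLIN-HA/CL4-TCR less that on Villin-HA + CL4-TCR, and a gene is counted as higher or lower where they reach 1 in size, which is a fold of 2. If the lower signal was under the floor, the fold is a bound and is written "at least". With 1 array a side there is no replicate and no test, and every difference is one between these arrays.

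The arrays differed in more than the genes of T cells, and these values stand beside every result. The median signal was 29.4 on VILLIN-HA/CL4-TCR, 35.3 on Villin-HA + CL4-TCR and 30.6 on CL4-TCR, and 10342, 11422 and 10271 genes lay above the floor. The signal at the 3′ end of Gapdh was 46.2, 3.35 and 18.4 times that at its 5′ end, while for Actb these ratios were 2.46, 1.80 and 1.98. The 18 probe sets of labelled control RNA added at hybridisation had a median log2 difference of -0.47, from -0.88 to -0.22. This added control RNA does not measure the labelling step or the amount of sample RNA. The signals of 18 skeletal muscle genes summed to 7272 on Villin-HA + CL4-TCR, against 316 on VILLIN-HA/CL4-TCR and 350 on CL4-TCR. Xist, a transcript of female cells, had signals of 2.5 on VILLIN-HA/CL4-TCR, 1339 on Villin-HA + CL4-TCR and 5442.5 on CL4-TCR, and the Y-linked Eif2s3y had 1496, 747 and 13.4. On Villin-HA + CL4-TCR the transcripts of both sexes were thus above the floor, so sex and group cannot be told apart. The labels name no batch. The array titles number CL4-TCR and VILLIN-HA/CL4-TCR consecutively and Villin-HA + CL4-TCR apart from them. What these numbers stand for is not stated.

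Of 12081 measured genes, 741 were higher on VILLIN-HA/CL4-TCR (6.13%) and 1081 were lower (8.95%), or 15.1% either way. These shares are the background against which each gene list below is read. The median difference over all measured genes was -0.06. Among the calls, 93 higher and 313 lower genes are bounds. The direction of the split depends on the scale between arrays. With the arrays brought to 1 median signal, 1370 genes were higher and 665 lower, so that 67.3% of calls were higher in place of 40.7%, and the median of all genes moved to 0.19. With the arrays brought to the added control RNA, a scaling chosen after seeing the data, 2096 were higher and 475 lower, or 81.5% higher, with a median of 0.38. Counts and list medians below are on the deposited scale, and a list's median is to be read against -0.06.

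**Figure D1:**
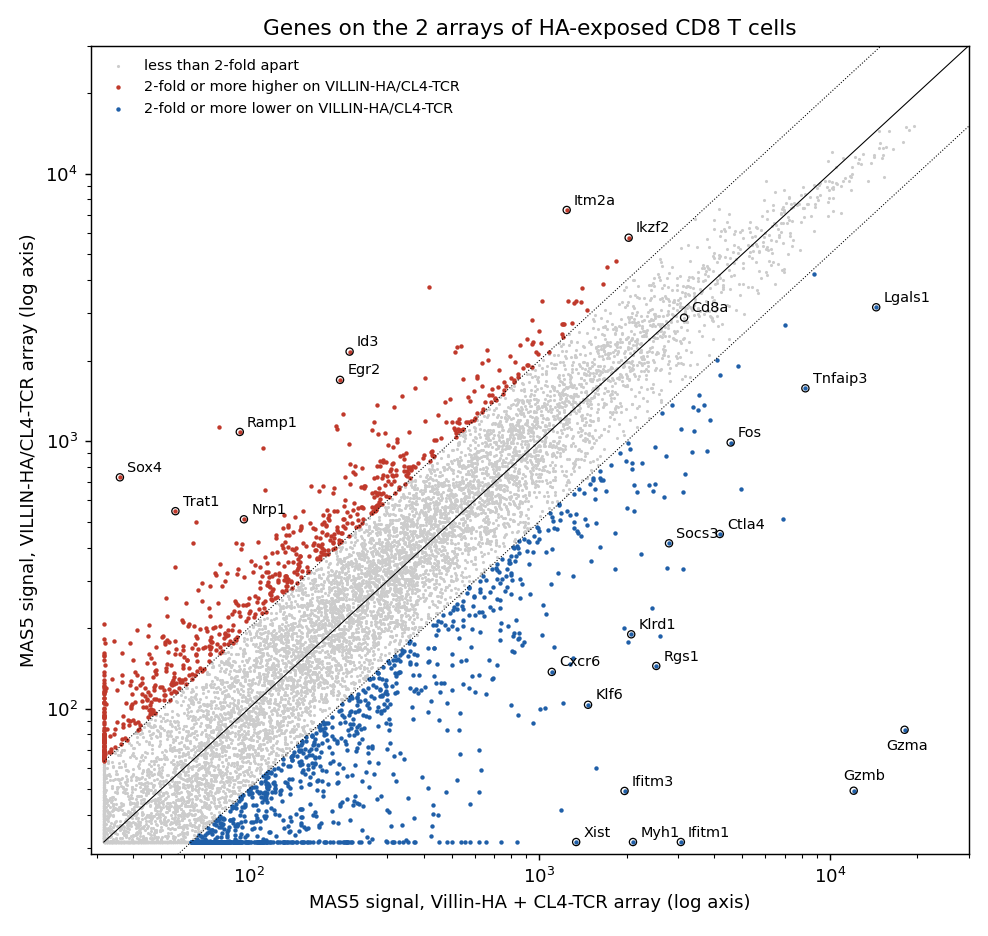
MAS5 signal of each measured gene on the VILLIN-HA/CL4-TCR array (vertical, log axis) against the Villin-HA + CL4-TCR array (horizontal, log axis), with values under the floor of 31.7 drawn at it, the line of equal signal solid and the 2-fold lines dotted. Gzma and Gzmb lie farthest to the lower right among the labelled genes, at 83.3 and 49.3 against 18077 and 12078, while Sox4, Id3, Egr2 and Itm2a lie above the upper 2-fold line.

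The error that these data hold is the spread between probe sets of 1 gene. Over 4222 genes for which more than 1 probe set was above the floor on each of these arrays, the pooled SD of the log2 differences within a gene was 0.61, so a 2-fold difference from 1 probe set is not far outside that spread. Among the 555 called genes with several such probe sets, all of them went in 1 direction for 346 and all passed 2-fold for 119. The agreement in direction was 58.1% for the 341 higher genes and 69.2% for the 214 lower ones. Counting probe sets above the floor on either array, 55 genes were higher and 92 lower by every one of 2 or more probe sets. Where the higher signal lay from the floor to 100, 10.2% of 4082 genes were called, 104 higher and 313 lower. From 100 to 300 the share was 21.4% of 3148, with 256 higher and 418 lower, and from 300 to 1000 it was 16.4% of 3058, with 267 and 235. Above a signal of 1000, 12.8% of 1793 genes were called, 114 higher and 115 lower, so the excess of lower calls lay among genes under a signal of 300.

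Set beside the CL4-TCR array, the called genes divided by the array on which they departed from it. The genes higher on VILLIN-HA/CL4-TCR had a median log2 difference from CL4-TCR of 0.19 for VILLIN-HA/CL4-TCR and of -1.13 for Villin-HA + CL4-TCR. The genes lower on VILLIN-HA/CL4-TCR had medians of -0.25 and 1.09. In both directions the Villin-HA + CL4-TCR array was the one farther from CL4-TCR. These genes were chosen by the difference between the HA arrays, and the medians are given as a description.

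Cytotoxic effector genes held the largest differences among the 57 gene lists examined. Of 21 measured granzyme and effector genes, 10 were lower on VILLIN-HA/CL4-TCR and 2 higher, with a median of -0.79. Gzmb, the protease that cleaves caspases in target cells, had signals of 49.3 on VILLIN-HA/CL4-TCR, 12078 on Villin-HA + CL4-TCR and 14.6 on CL4-TCR, a 245-fold difference between the HA arrays. Gzma, a tryptase of the same granules, had 83.3, 18077 and 90.1 on the same arrays, a 217-fold difference. VILLIN-HA/CL4-TCR and CL4-TCR were thus both low for these granzymes, and only Villin-HA + CL4-TCR was high. Gzmk had 44.0, 575 and 21.4, which is 13.1-fold lower on VILLIN-HA/CL4-TCR. Ifng, the effector cytokine interferon gamma, had 58.7, 632 and 4.2, a difference of -3.43. Fasl, the death ligand that binds Fas, lay under the floor on VILLIN-HA/CL4-TCR at 25.7 and reached 203 on Villin-HA + CL4-TCR, at least 6.39-fold apart. Each of these 5 genes rests on 1 measured probe set, and a further one of Fasl lay under the floor on every array, at 24.8 on Villin-HA + CL4-TCR.

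Other granule genes differed less than these granzymes. Prf1, the pore-forming protein perforin, had signals of 98.9 on VILLIN-HA/CL4-TCR, 208 on Villin-HA + CL4-TCR and 525 on CL4-TCR, so it was highest on CL4-TCR and lowest on VILLIN-HA/CL4-TCR, and its 2 probe sets gave -1.07 and 0.17. Serglycin (Srgn), the proteoglycan that packs granules, differed by -0.20, the granule membrane protein Nkg7 by -0.66 and cathepsin C (Ctsc), which activates granzymes, by -0.02. Serpinb9, an inhibitor that protects cells from their own granzyme B, was lower on VILLIN-HA/CL4-TCR, at 183 against 854, and both its probe sets passed 2-fold, at -2.22 and -1.88. The 2 higher members were Gzmm, at 66.0 against 30.2, and Tnfsf10 (TRAIL), whose probe sets ran from -0.30 to 1.10. Tnf differed by 0.09. Gzmd, Gzme, Gzmf, Gzmg and Gzmn were not measured.

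Lectin-like receptors that CD8 effector cells share with NK cells were lower on VILLIN-HA/CL4-TCR in part. Of 11 measured, 4 were lower and 1 higher. Klrc1 (NKG2A), an inhibitory receptor, had 28.5 on VILLIN-HA/CL4-TCR, 539 on Villin-HA + CL4-TCR and 4.8 on CL4-TCR, at least 17.0-fold lower. Klrk1 (NKG2D), an activating receptor for stress ligands, had 33.3, 425 and 14.4. Klrd1 (CD94), the partner chain of NKG2A, had 189.5, 2071 and 2276, so here VILLIN-HA/CL4-TCR stood apart from both other arrays, by 10.9-fold from Villin-HA + CL4-TCR. Hcst, the adaptor of NKG2D, differed by -0.26. The NK cell receptor Ncr1 lay under the floor on each array, at 24.8 on VILLIN-HA/CL4-TCR and 28.0 on Villin-HA + CL4-TCR.

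**Figure D2:**
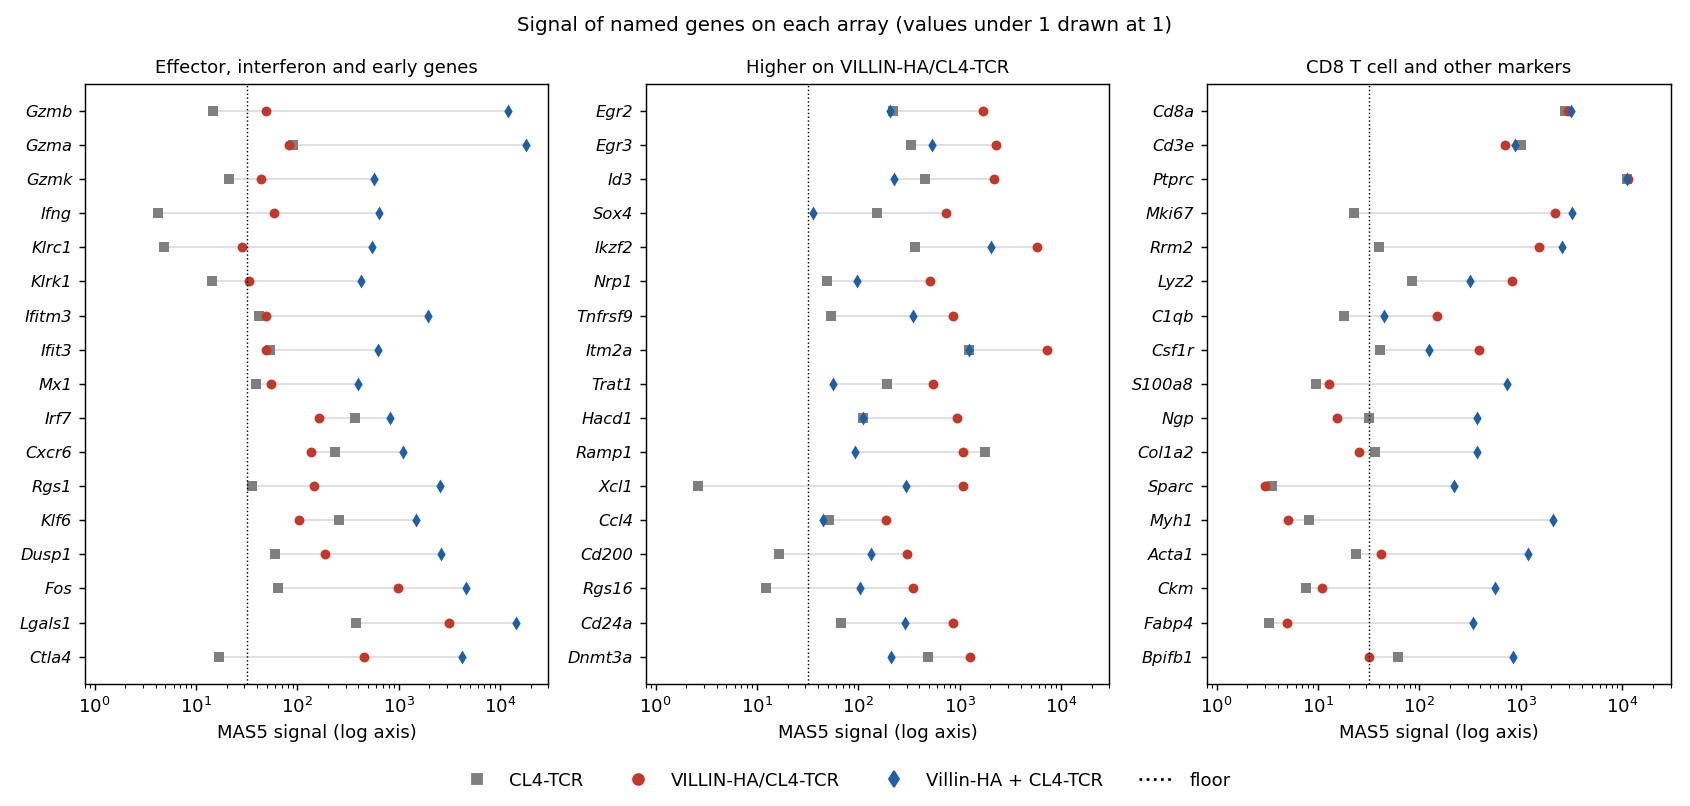
MAS5 signal (log axis) of named genes on the CL4-TCR array (squares), the VILLIN-HA/CL4-TCR array (circles) and the Villin-HA + CL4-TCR array (diamonds), with the floor dotted and values under 1 drawn at 1. In the left panel the diamonds lie to the right of the circles for each gene, as for Ctla4 at 4179.7 against 449, in the middle panel the circles lie to the right of the diamonds, and in the right panel Cd8a and Ptprc lie close together while Myh1 does not.

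Interferon-induced genes were lower on VILLIN-HA/CL4-TCR as a group. Of 36 measured members 24 were lower and 0 higher, with a median of -1.45, where 8.95% of all measured genes were lower. Interferons switch these genes on through promoter elements, among them the ISRE and the GAS. The core of the ISRE, searched by its letters on both strands from 250 bases before to 50 bases after a start site in RefSeq (GRCm38.p6), occurred in 16 of the 25 list members with a promoter there, against 3.99% of 27025 genes. It occurred in 11 of 16 lower members and in 5 of 9 members that were not called, so its presence did not mark the called members. Windows of 100 bases upstream of 4 genes of this response are shown because these genes were among the lower ones. Each ISRE match is in capitals, on the strand of the gene.
Ifit3, chr19:34583328-34583427, plus strand: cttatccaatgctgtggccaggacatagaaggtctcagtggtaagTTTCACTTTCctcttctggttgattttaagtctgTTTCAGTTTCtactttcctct
Ifit1, chr19:34640740-34640839, plus strand: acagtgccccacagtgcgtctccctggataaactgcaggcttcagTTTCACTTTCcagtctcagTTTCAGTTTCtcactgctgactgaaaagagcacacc
Rsad2, chr12:26456518-26456617, minus strand: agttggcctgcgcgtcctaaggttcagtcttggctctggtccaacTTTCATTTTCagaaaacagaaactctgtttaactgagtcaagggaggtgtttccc
Cxcl10, chr5:92349040-92349139, minus strand: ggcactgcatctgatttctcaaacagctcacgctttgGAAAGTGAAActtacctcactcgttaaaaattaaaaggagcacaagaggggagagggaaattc

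Ifit3, whose protein is induced by interferon and binds viral RNA complexes, had signals of 48.7 on VILLIN-HA/CL4-TCR, 621 on Villin-HA + CL4-TCR and 54.1 on CL4-TCR, a difference of -3.67. Ifit1, which binds viral RNA caps, had 66.5, 317 and 114, a difference of -2.25. Rsad2 (viperin), an antiviral enzyme, had 62.5, 279 and 57.0, and its 3 probe sets ran from -2.16 to -0.53. Cxcl10, a chemokine that draws effector T cells, had 48.9, 479 and 36.5, a difference of -3.29. For each of these 4 genes the Villin-HA + CL4-TCR array was the high one, and the other arrays lay within 2-fold of each other.

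The interferon-induced transmembrane proteins, which block virus entry at membranes, included the largest differences of this group, those of Ifitm1 and Ifitm3. Ifitm1 had signals of 25.3 on VILLIN-HA/CL4-TCR, 3069.5 on Villin-HA + CL4-TCR and 18.9 on CL4-TCR, at least 96.8-fold lower. Ifitm3 had 49.2, 1965 and 41.4, a 39.9-fold difference. Ifitm2, at 37.8, 195 and 30.5, differed by -2.37, less than Ifit3. Members that were not called included Ifit2 at -0.12, the GTPases Gbp2 at -0.41 and Igtp at -0.97, and Iigp1, the highest measured member, at 0.51. The other probe set of Gbp2 gave -1.29, which is past 2-fold. Among the factors upstream, Irf7, the master factor of the type I interferon response, was lower on VILLIN-HA/CL4-TCR (163, against 819 on Villin-HA + CL4-TCR and 371 on CL4-TCR). Stat2 differed by -0.15, Irf9 by -0.86 and Irf1 by -0.71. The receptor chain Ifngr1 was lower at -1.54, and Ifnar2 was higher by its representing probe set at 2.92 while its 3 probe sets ran from 0.25. Stromal and muscle cells also make interferon-induced transmembrane proteins, and the part of the muscle and stroma transcripts on the Villin-HA + CL4-TCR array in these values was not tested.

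**Figure D3:**
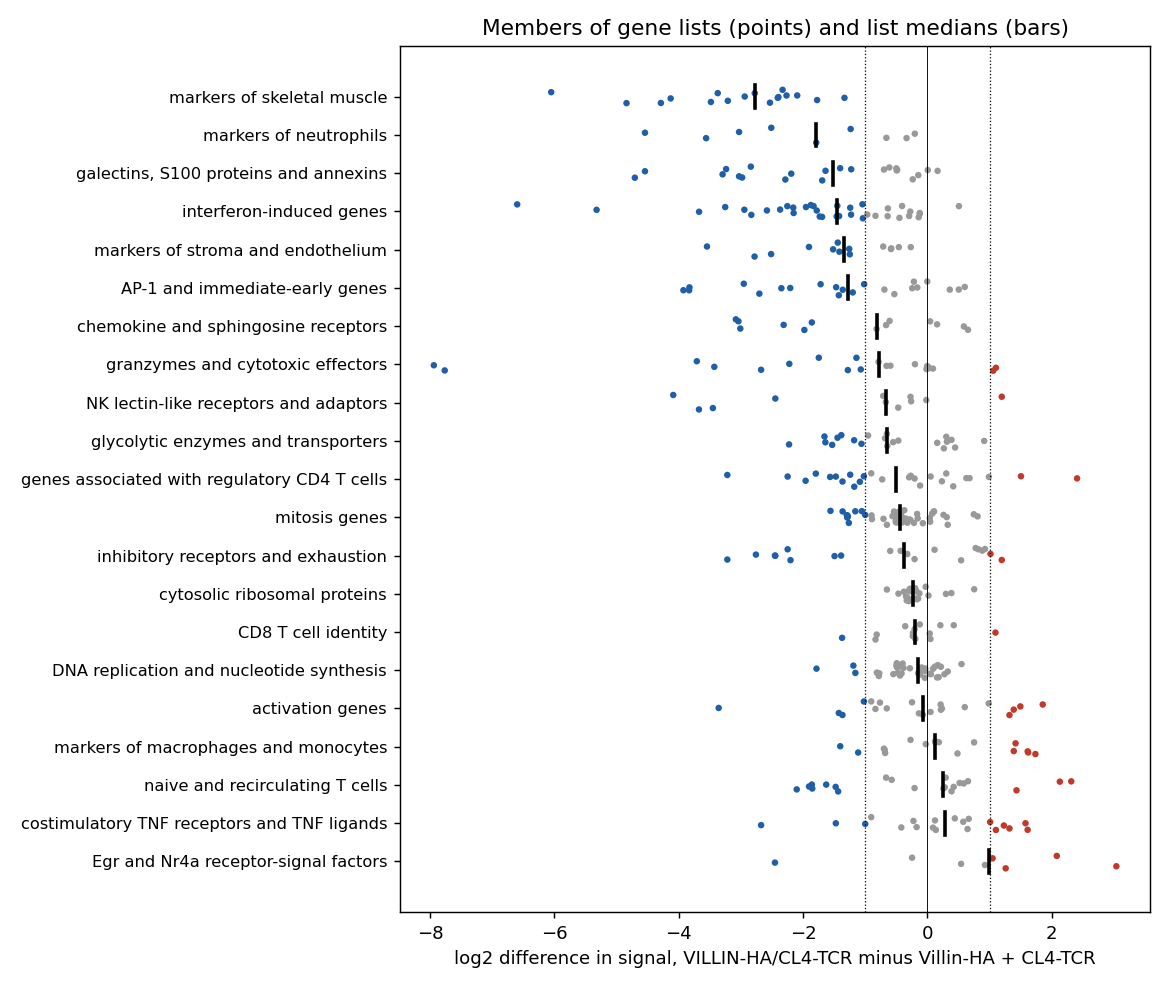
Log2 difference in signal, VILLIN-HA/CL4-TCR less Villin-HA + CL4-TCR, of each measured member (points) of 21 gene lists, with the list median as a bar and 2-fold lines dotted (red higher, blue lower, grey under 2-fold). Skeletal muscle markers have the lowest median at -2.78, interferon-induced genes lie at -1.45, ribosomal proteins at -0.23, and the Egr and Nr4a factors have the highest at 0.99.

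Genes that respond within minutes to receptor signals split by family. Of 22 measured AP-1 and other immediate-early genes, 13 were lower on VILLIN-HA/CL4-TCR and 0 higher, with a median of -1.28. Of 8 measured Egr and Nr4a genes and their Nab partners, 4 were higher and 1 lower, with a median of 0.99. Both families are known to be switched on by T cell receptor signals, the Egr genes through serum response elements and NFAT. Windows of 100 bases upstream are shown for Egr2, which was higher, and for the early feedback gene Dusp1, which was lower. The capitals mark a serum response element in Egr2 and a cyclic AMP response element in Dusp1, and both are from RefSeq (GRCm38.p6) on the strand of the gene.
Egr2, chr10:67537449-67537548, plus strand: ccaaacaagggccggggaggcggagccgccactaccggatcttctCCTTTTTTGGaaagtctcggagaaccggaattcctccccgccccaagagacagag
Dusp1, chr17:26508562-26508661, minus strand: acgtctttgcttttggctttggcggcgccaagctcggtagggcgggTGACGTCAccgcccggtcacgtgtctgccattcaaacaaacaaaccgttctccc
The serum response element occurred in 1.81% and TGACGTCA in 2.03% of genes with a promoter in that table on either strand, and neither motif overlaps the other. Within the lists, the serum response element occurred in 1 of 7 Egr and Nr4a genes and in 1 of 12 lower AP-1 and immediate-early genes. TGACGTCA occurred in 0 of those 7, in 1 of those 12 and in 1 of 7 AP-1 and immediate-early genes that were not called. By call, the serum response element occurred in 1 of 2 higher Egr and Nr4a genes with a promoter and in 0 of 3 that were not called. So few genes cannot show whether these motifs mark the families or the calls.

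Egr2, a factor that restrains T cell responses and is needed for anergy, had signals of 1693 on VILLIN-HA/CL4-TCR, 206 on Villin-HA + CL4-TCR and 217 on CL4-TCR, and its 2 probe sets gave 3.04 and 2.44. Egr3, its close relative, had 2276, 538 and 329, a difference of 2.08, but its other measured probe set gave -0.47. Egr1 was higher at 3321 against 1389, with 1156 on CL4-TCR, and Nab2, a co-repressor that Egr factors induce, at 364 against 176. For all of these, VILLIN-HA/CL4-TCR was the high array and Villin-HA + CL4-TCR lay near CL4-TCR. The orphan receptors Nr4a1 (1608 against 1105) and Nr4a3 (1127 against 594) differed by 0.54 and 0.93, below 2-fold. Nr4a2 went the other way, at 333 against 1824, with probe sets from -2.45 to 0.24.

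Among the AP-1 genes, Fos had signals of 988 on VILLIN-HA/CL4-TCR, 4555 on Villin-HA + CL4-TCR and 64.8 on CL4-TCR, so that both HA arrays were above CL4-TCR and differed by -2.21. Jun had 22.4, 450.0 and 27.9, at least 14.2-fold lower on VILLIN-HA/CL4-TCR by 2 agreeing probe sets. Junb had 103, 799 and 79.7. Klf6, a zinc finger factor of the early response, had 103, 1471 and 256, and its 5 probe sets ran from -3.83 to -2.13, so each of them passed 2-fold. Klf4, a factor linked to quiescence, lay under the floor on VILLIN-HA/CL4-TCR at 14.5 and reached 481 on Villin-HA + CL4-TCR. Jund, at 0.50, and Myc, at 0.60, differed less than 2-fold.

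Feedback inhibitors of these signals were lower on VILLIN-HA/CL4-TCR in part. Dusp1, which switches off MAP kinases, had signals of 187 on VILLIN-HA/CL4-TCR, 2596 on Villin-HA + CL4-TCR and 60.1 on CL4-TCR, a difference of -3.79. Dusp5 (119 against 358) and Dusp4 (223 against 599.5) were lower too, and the other 13 of 16 measured dual-specificity phosphatases were not called, Dusp2 at -0.17 and Dusp6 at 0.05 among them. Tnfaip3 (A20), an inhibitor of NF-kappaB signalling, had 1575, 8237 and 778, with probe sets at -2.39 and -3.29. Of 19 NF-kappaB genes 2 were lower, Tnfaip3 and Rel, and 2 higher, Bcl3 at 1.09 and Nfkbid at 1.55, while Nfkbia differed by -0.28. Socs3, the inhibitor of IL-6 family signals, had 415, 2795 and 3452, so VILLIN-HA/CL4-TCR was the low array, with 3 probe sets from -3.16 to -2.53. Zfp36, which destabilises cytokine transcripts, was lower by -1.47.

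Genes known from regulatory CD4 T cells did not move together. Of 26 measured, 11 were lower on VILLIN-HA/CL4-TCR and 2 were higher, with a median of -0.51. At equal medians 7 were lower and 3 higher, on the scale of the added control RNA 6 and 5, and the floor at the 35th percentile moved the median to -0.96. Ctla4, the inhibitory receptor that competes with CD28, had signals of 449 on VILLIN-HA/CL4-TCR, 4179.7 on Villin-HA + CL4-TCR and 16.9 on CL4-TCR, so both HA arrays were above CL4-TCR and differed 9.30-fold. Foxp3, the defining factor of CD4 regulatory cells, was close to the floor, at 38.2 against 86.4, with 29.6 on CL4-TCR. Il2ra (CD25, 114 against 294), Entpd1 (CD39, 37.4 against 178) and Nt5e (CD73, 153 against 325) were lower. Icos, an inducible costimulatory receptor, had 2013 against 4088, and its 3 probe sets ran from -1.22 to -1.02. Il10 was not measured, and Tgfb1 differed by 0.41.

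Ikzf2 (Helios), a factor of regulatory and of chronically stimulated T cells, was one of the 2 higher members. It had signals of 5757 on VILLIN-HA/CL4-TCR, 2029.7 on Villin-HA + CL4-TCR and 361 on CL4-TCR, and each of its 3 probe sets gave at least 1.20. Nrp1, a semaphorin and VEGF co-receptor, was the other, at 510.0, 96.2 and 48.9, with 4 probe sets from 1.10 to 2.41. Nrp1 is 1 of 4 genes that the authors singled out on these same arrays, as far as the study is known, so its difference is no independent evidence. The other 3 were Tnfrsf9 (4-1BB), an inducible costimulator, at 853 against 342 with probe sets from -0.63 to 1.47; Pdcd1 (PD-1), at 614 against 359; and Itgae (CD103), the integrin that binds E-cadherin of epithelium, at 4012 against 2600. Pdcd1 and Itgae differed by 0.78 and 0.63, under 2-fold, and each of the 4 was lowest on CL4-TCR.

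Inhibitory receptors and exhaustion genes were likewise called in both directions. Of 20 measured, 8 were lower on VILLIN-HA/CL4-TCR and 2 higher, and the median of -0.38 turned to 0.09 when arrays were scaled to the added control RNA, where 7 were lower and 7 higher. Havcr2 (TIM-3) lay under the floor on VILLIN-HA/CL4-TCR at 24.6, against 146. Tox2 was lower at 953 against 2495. Cd200, a ligand that restrains myeloid cells, was higher at 302 against 132, with 16.3 on CL4-TCR. Lag3 (269 against 311) and Cd160 (1603 against 2009) differed by -0.21 and -0.33, with 5.8 and 74.0 on CL4-TCR. By their representing probe sets these receptors were thus above CL4-TCR on both HA arrays at like levels. The probe sets of Cd160 ran from -0.72 to 1.21. Tox, Btla and Nr4a3 were at 0.82, 0.88 and 0.93. Of the anergy genes Cblb, an E3 ligase, was lower by -1.89 in its representing probe set while another of its probe sets gave 1.16.

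Factors of CD8 T cell differentiation were called in both directions, 4 of 22 each way, or 5 higher and 2 lower on the scale of the added control RNA. Sox4, a factor of early lymphoid and memory-type cells, had the highest difference of the named factors, with signals of 732 on VILLIN-HA/CL4-TCR, 36.0 on Villin-HA + CL4-TCR and 152 on CL4-TCR. That is 20.3-fold, but its 4 probe sets ran from 0.27 to 4.35. Id3, an inhibitor of E proteins that is kept in memory precursors, had 2159.6, 222 and 458 by its 1 probe set, a difference of 3.28. Its effector counterpart Id2 had 1557, 2621 and 881, a difference of -0.75. Prdm1 (Blimp-1), a factor of terminal effectors, lay under the floor on VILLIN-HA/CL4-TCR at 23.1 and had 215 on Villin-HA + CL4-TCR. Bhlhe40, a factor of cytokine-producing cells, had 238, 2435 and 4.2. Tbx21 (T-bet) differed by -0.48, and Eomes was higher at 185 against 91.4, though both were below the 993 of CL4-TCR.

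Genes of naive and recirculating cells also divided. Of 21 measured, 7 were lower on VILLIN-HA/CL4-TCR and 3 higher, yet the list's median difference was 0.26, above the -0.06 of all measured genes. It was 0.52 at equal medians and 0.72 on the scale of the added control RNA. The list's median difference from CL4-TCR was -1.50 on VILLIN-HA/CL4-TCR and -1.20 on Villin-HA + CL4-TCR. Il7r, the receptor for the survival cytokine IL-7, had signals of 1359 on VILLIN-HA/CL4-TCR, 3677 on Villin-HA + CL4-TCR and 5515 on CL4-TCR, with probe sets at -1.54 and -1.44. Ccr7, the homing receptor for lymph nodes, had 689, 2501 and 1839. Klf2, which drives lymph node exit genes, had 686, 2121 and 3906, and Igfbp4 had 258, 717 and 4167 with 4 probe sets from -1.91 to -1.48. In these cases VILLIN-HA/CL4-TCR was the lowest of the 3 arrays. Bach2, a repressor of effector genes, went the other way at 1369, 276 and 1124, but its probe sets ran from -0.85 to 2.31, and those of Il6st and Bcl2 disagreed likewise. Lef1 and Foxp1 differed by 0.58 and 0.65.

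Among migration genes, 6 of 13 measured chemokine and sphingosine receptors were lower on VILLIN-HA/CL4-TCR and 0 higher, with a median of -0.82. Of 18 measured gut homing genes and integrins 5 were lower and 1 higher, with a median of -0.13, and of 8 measured RGS regulators 2 were lower and 2 higher. Cxcr3, the receptor of Cxcl10, had signals of 335 on VILLIN-HA/CL4-TCR, 2753 on Villin-HA + CL4-TCR and 784 on CL4-TCR. Cxcr6, a receptor of tissue-resident cells, had 137, 1104 and 233, with probe sets at -3.01 and -2.56. Ccr2 had 36.5, 309 and 22.0. Ccr9, the receptor that guides T cells to the small intestine, was high on every array at 5404, 5245 and 2976. It differed by 0.04 in its representing probe set, while its probe sets ran from -0.16 to 1.71. Itgb7, the beta chain of the gut-homing integrin, was lower at 646 against 3125 on Villin-HA + CL4-TCR and 2499 on CL4-TCR, while its partner Itga4 differed by -0.32. Rgs1, which damps chemokine receptor signals, had 144, 2526 and 35.7, and Rgs2 had 177, 2019.5 and 386 with 3 measured probe sets from -4.64 to -2.73. Rgs16 went the other way at 343, 105 and 12.4, with probe sets at 1.69 and 1.71.

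Galectins, S100 proteins and annexins, a group high in effector and memory T cells, were lower in 13 of 22 measured members and higher in 0, with a median of -1.52. Lgals1 (galectin 1), a sugar-binding protein that can kill activated T cells, had signals of 3163 on VILLIN-HA/CL4-TCR, 14437 on Villin-HA + CL4-TCR and 379.9 on CL4-TCR, with probe sets at -2.80 and -2.19. Lgals3 had 332, 3129 and 11.4. S100a6, a calcium-binding protein, had 60.0, 1565 and 10.1, a 26.1-fold difference. S100a10 and Vim, which effector cells also raise, differed by -0.70 and -0.61. S100a8 and S100a9 in this list are neutrophil genes, and fibroblasts make several others. The neutrophil markers summed to 1977 on Villin-HA + CL4-TCR, against 191 on VILLIN-HA/CL4-TCR and 201 on CL4-TCR. The stroma markers summed to 1578, 259 and 264 in the same order, and the part of these cells in this list was not tested.

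Chemokines and TNF family members were called in both directions. Of 9 measured chemokines, 2 were higher on VILLIN-HA/CL4-TCR and 2 lower, among the latter Cxcl10, given above. Xcl1, which attracts cross-presenting dendritic cells, had signals of 1068 on VILLIN-HA/CL4-TCR, 295 on Villin-HA + CL4-TCR and 2.6 on CL4-TCR. Ccl4 had 187, 45.0 and 51.4, while Ccl5 was lower at 441 against 957 and Ccl3 differed by 0.23. Of 20 measured TNF receptors and ligands, 6 were higher and 2 lower, and 4 of these calls are bounds. With the floor at the 65th percentile 3 were higher and 2 lower. The higher ones included Lta (lymphotoxin alpha), at least 2.98-fold, and Tnfsf9, the ligand of 4-1BB, at least 3.05-fold, both with the Villin-HA + CL4-TCR signal under the floor. Tnfrsf18 (GITR) was lower at 229.6 against 637. Among cytokine receptors Il18rap, a chain of the IL-18 receptor, was lower at 50.4 against 415 with probe sets at -3.04 and -2.22, and Il27ra was higher at 1715 against 800.1.

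Of 21 measured activation genes, 4 were higher and 4 lower on VILLIN-HA/CL4-TCR. This balance depends on the scale, since 6 were higher and 3 lower at equal medians and 8 and 1 on the scale of the added control RNA. Their median difference from CL4-TCR was 1.65 on VILLIN-HA/CL4-TCR and 1.72 on Villin-HA + CL4-TCR. Cd69 had signals of 2987 on VILLIN-HA/CL4-TCR, 3142 on Villin-HA + CL4-TCR and 950.4 on CL4-TCR. Cd44, a marker of antigen experience, had 1417, 1223 and 321, a difference of 0.21. Irf4 and Irf8, factors that rise with receptor signal strength, were higher on VILLIN-HA/CL4-TCR at 887 against 339 and 838 against 298, but in each the other probe set gave a difference below 0, at -0.38 and -0.29.

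Cell cycle genes were above CL4-TCR on both HA arrays, the mitosis list by a median of 2.30 on VILLIN-HA/CL4-TCR and 2.86 on Villin-HA + CL4-TCR. Mki67, a protein of dividing cells, had signals of 2197 on VILLIN-HA/CL4-TCR, 3191 on Villin-HA + CL4-TCR and 22.8 on CL4-TCR, a difference of -0.54 between the HA arrays. Of 48 measured mitosis genes 10 were lower on VILLIN-HA/CL4-TCR and 0 higher. Ube2c, which marks mitotic proteins for destruction, was the largest at 96.6 against 285, and none of the 10 reached 3-fold. Their median of -0.44 turned to 0.02 on the scale of the added control RNA, where 1 was lower and 2 higher. Of 35 measured replication genes 3 were lower, Tk1, Uhrf1 and Rrm1, the last with probe sets from -3.30 to -0.52, and Mcm6, a helicase subunit, had 2182 against 2236 with 383 on CL4-TCR. The letters TTTGAA, the core of the cell cycle homology region of mitotic promoters, occurred in 6 of 9 lower and 24 of 32 other mitosis genes with a promoter, against 20.2% of all genes.

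Respiratory chain and ribosomal protein genes differed little between the arrays, and glycolytic genes were lower on VILLIN-HA/CL4-TCR in part. Of 40 measured respiratory chain genes 2 were lower and 0 higher, with a median of -0.02. None of 23 measured cytosolic ribosomal protein genes was called, and their median was -0.23. Of 21 measured glycolytic genes 8 were lower and 0 higher, with a median of -0.65, and 5 were lower on the scale of the added control RNA. The enzyme Aldoa had signals of 878 on VILLIN-HA/CL4-TCR, 2738 on Villin-HA + CL4-TCR and 1383 on CL4-TCR, with 5 probe sets from -2.42 to -1.29, and Pkm had 495, 1561 and 478. Ldha and Pgk1 differed by -0.47 and 0.16. The 3 probe sets of Gapdh gave -1.06 at the 3′ end, -3.31 in the middle and -4.85 at the 5′ end, so the call of this gene changes in size with the position on the transcript. Muscle is rich in glycolytic enzymes, and the part of its transcripts here was not tested.

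Of 33 measured proteasome genes 7 were lower and 1 higher, or 4 and 2 on the scale of the added control RNA. The lower ones included subunits of the immunoproteasome, the form that interferon gamma induces for antigen processing. Psmb8 had signals of 619.9 on VILLIN-HA/CL4-TCR, 2693 on Villin-HA + CL4-TCR and 1470 on CL4-TCR, though its 2 probe sets gave -2.12 and -0.18. Psmb10 had 452, 1359.8 and 1433, and the activator subunit Psme1 had 687, 2381 and 2144. Psmb9, another immunoproteasome subunit, differed by -0.88, under 2-fold. Among chaperones, the inducible heat shock gene Hspa1b was lower at 46.2 against 352, with 3 probe sets from -2.93 to -1.80, while the constitutive Hspa8 differed by -0.13.

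Beyond these lists, genes higher on VILLIN-HA/CL4-TCR by every measured probe set included several of T cell membranes. Trat1, an adaptor that stabilises the T cell receptor complex, had signals of 547 on VILLIN-HA/CL4-TCR, 55.9 on Villin-HA + CL4-TCR and 192 on CL4-TCR, with probe sets at 2.00 and 3.29. Itm2a, a membrane protein induced on receptor stimulation, had 7309, 1242 and 1228, with probe sets at 1.83 and 2.56. Hacd1, an enzyme of very long fatty acid synthesis, had 942, 112 and 111. Cd24a, a glycosylated surface protein, had 852, 289 and 67.3, with 3 probe sets from 1.48 to 1.70. For Itm2a and Hacd1, as for Egr2, the Villin-HA + CL4-TCR and CL4-TCR signals lay close together. The DNA methyltransferase Dnmt3a, which silences genes in differentiating T cells, had 1258, 212 and 482. Its 5 probe sets ran from 0.94, under 2-fold, to 2.57. It is from the list of DNA methylation writers and erasers, where 3 of 12 measured were higher and 3 lower, with a median of 0.52. Cd5, which dampens receptor signals and tracks their strength, was higher at 2774 against 1299.7 and is the only higher member of the CD8 T cell identity list. Zinc finger genes named Zfp, a group chosen after its values were seen, were higher in 57 of 262 measured (21.8%, against 6.13% of all measured genes) and lower in 11. Of the 19 higher ones with several probe sets, 12 agreed in direction and 4 passed 2-fold by all of them.

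Genes lower by every measured probe set, apart from those named above, included Pim1, a kinase induced by cytokines, at 170.0 on VILLIN-HA/CL4-TCR, 1127 on Villin-HA + CL4-TCR and 221 on CL4-TCR. Plek (pleckstrin) had 96.2, 531 and 6.4, and Ctsz, a lysosomal protease, had 189, 1025 and 193. Others of this kind are not T cell genes. Bpifb1, a secreted protein of airway and nasal lining, was at least 26.5-fold lower and reached 839.8 on Villin-HA + CL4-TCR. Ttr, a transport protein of liver and choroid plexus, was at least 18.2-fold lower at 13.1 against 577 with 4 probe sets from -4.19 to -1.69.

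**Figure D4:**
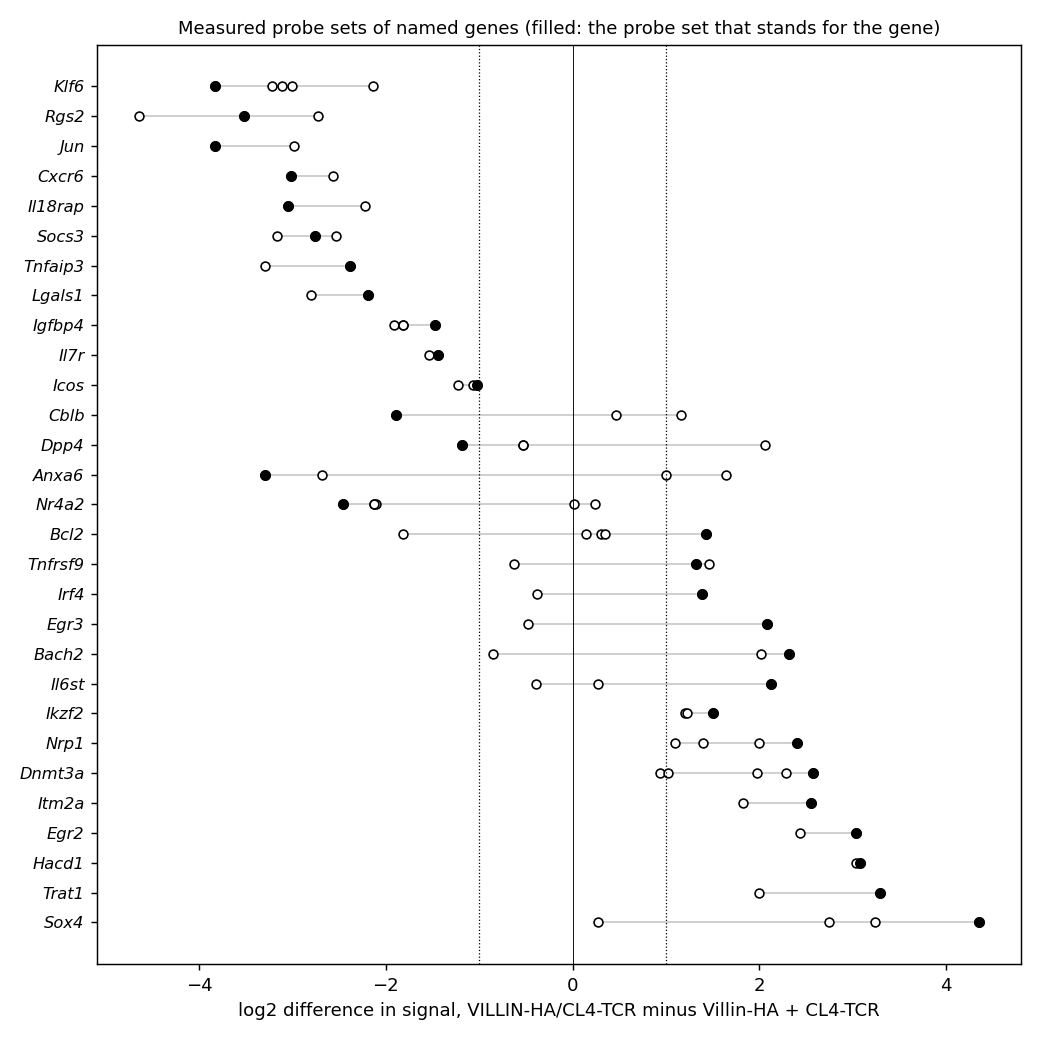
Log2 difference, VILLIN-HA/CL4-TCR less Villin-HA + CL4-TCR, of each measured probe set of named genes, with the probe set that stands for the gene filled and 2-fold lines dotted. The 5 probe sets of Klf6 lie between -3.83 and -2.13, while those of Anxa6, Dpp4, Cblb and Bcl2 lie past 2-fold in both directions.

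Probe sets of 66 genes passed 2-fold in opposite directions, so the call of such a gene depends on which probe set is read. Anxa6, a membrane-binding protein, was lower by -3.29 in its representing probe set and higher by 1.64 in another. Dpp4 (CD26), a surface peptidase, had probe sets from -1.18 to 2.06. Bcl2, which protects from apoptosis, was higher by 1.43 while another of its 5 probe sets gave -1.82. Counts of list members read these genes by their representing probe set, which puts Anxa6 among the lower annexins.

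The defining transcripts of CD8 T cells were well above the floor on both arrays. Cd8a had signals of 2893 on VILLIN-HA/CL4-TCR, 3149 on Villin-HA + CL4-TCR and 2714 on CL4-TCR by its brightest probe set, while its 5 probe sets ran from -2.07 to 0.10. Cd3e had 692, 887 and 1014, and Ptprc (CD45) had 11459, 11082 and 11134. Of 14 identity genes, 1 was lower, the adaptor Lat at 653 against 1690, and Cd5 was higher. Cd4 lay under the floor on each array, at 5.9 on VILLIN-HA/CL4-TCR and 9.4 on Villin-HA + CL4-TCR, and so did Vil1, which encodes villin. Markers of other cells were nevertheless present in unequal amounts. In bulk RNA, more cells of a type and more RNA per cell cannot be told apart.

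For Villin-HA + CL4-TCR, 17 of 18 skeletal muscle markers lay above the floor, against 4 on VILLIN-HA/CL4-TCR and 2 on CL4-TCR, and all 17 measured were lower on VILLIN-HA/CL4-TCR. Myh1, a myosin of fast muscle fibres, had signals of 5.1 on VILLIN-HA/CL4-TCR and 2100.1 on Villin-HA + CL4-TCR, at least 66.2-fold apart. Acta1, skeletal muscle actin, had 41.6 and 1191. Stroma and endothelium markers were lower in 9 of 14 measured genes and summed to 259 against 1578, with Col1a2, a collagen, at 25.3 against 369.9, while the endothelial genes Cdh5 and Vwf lay under the floor on each array. Neutrophil markers were lower in 6 of 9, with S100a8 at 12.9 against 739. Fabp4, a fat cell gene, had 5.0 against 339.5, but Adipoq, another, had 4.6 against 36.3.

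Macrophage markers were called in both directions. Their 18 genes summed to 5800 on VILLIN-HA/CL4-TCR, 2709 on Villin-HA + CL4-TCR and 563 on CL4-TCR, while 5 of 17 measured were higher, 2 lower and 10 not called, with a median of 0.12. On both HA arrays most of the sum came from Lyz1, a lysozyme gene close in sequence to Lyz2, at 3730.0, 1397 and 152, whose direction turned without probe sets of possible multiple matches (-0.64). Lyz2, lysozyme of myeloid cells, had 817, 312 and 84.5, and C1qb, a complement subunit made by macrophages, had 149, 44.6 and 18.1 with probe sets at 1.59 and 1.74. Csf1r, the macrophage growth factor receptor, had 384, 125 and 40.9, with probe sets from -0.61 to 1.62, whereas Adgre1 (F4/80), Cd68 and Apoe had differences of -0.69, -1.11 and -1.40. Plasma cell markers were higher in 3 of 5 measured and lower in 1, with a median of 1.02, and Jchain, which joins secreted antibodies, had 178 against 74.9. Dendritic cell markers were lower in 2 of 3 measured, Itgax (CD11c) at 43.5 against 431 and Ccr7, which T cells also make. B cell markers were higher in 2 of 8 measured, Cd22 and Ms4a1, while Cd79a lay under the floor on each array. Of 9 measured MHC class II genes 1 was called, H2-Ob, and 6 gut epithelium genes were measured with 0 called. NK cells also make the granzymes and Klrc1, and the 6 NK cell markers found summed to 314 on VILLIN-HA/CL4-TCR, 362 on Villin-HA + CL4-TCR and 1081 on CL4-TCR. These sums include Eomes, named above among the factors of CD8 T cell differentiation, at 185, 91.4 and 993. Of 4 measured NK cell markers, Eomes was higher on VILLIN-HA/CL4-TCR and Fcgr3 was lower, at 11.1 against 82.8. Above the floor lay 4 of the markers on Villin-HA + CL4-TCR and 2 on each other array. The part of these cells in the gene lists above was not tested.

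**Figure D5:**
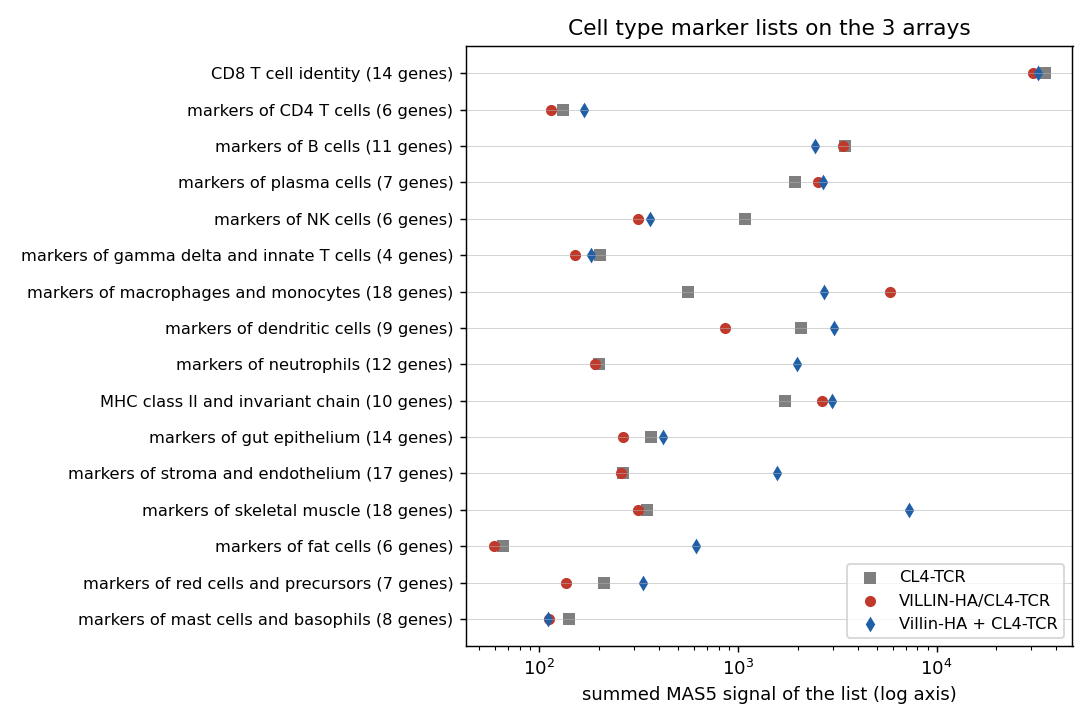
Summed MAS5 signal (log axis) of cell type marker lists on the CL4-TCR array (squares), the VILLIN-HA/CL4-TCR array (circles) and the Villin-HA + CL4-TCR array (diamonds), with the number of genes in each list. The CD8 T cell list lies at 30557 to 35081 on the 3 arrays, skeletal muscle, stroma, neutrophil and fat cell lists are highest on Villin-HA + CL4-TCR, and the macrophage list is highest on VILLIN-HA/CL4-TCR.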

How the data were processed

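Total RNA of CD8 T cells was hybridised to 3 one-colour Affymetrix-type arrays, 1 a group, and the groups were taken from the source names. The authors deposited intensity values made with MAS5, as the submitters' processing notes say without a version or background settings. MAS5 summarises the probes of a set into 1 linear signal and scales each array. As deposited, the 2% trimmed mean over 45101 probe sets is 150 on every array, so a change common to most transcripts could not be seen. No detection calls were used.

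Probe sets were named through the annotation of the platform and updated by Entrez identifier with the RefSeq gene table of GRCm38.p6. Of the 45101, 34958 had 1 symbol, 932 several and 9211 none, and 34754 identifiers were found in that table. The 18194 genes were each given the probe set with the highest mean signal. Ratios were taken with Python 3.11.15, NumPy 2.4.6 and pandas 2.3.3, after values under the median of all values were raised to it, and checked on simulated data. The simulated probe sets of a gene spread less than those of these arrays, so that check does not measure false calls here. No p-value is given with 1 array a group, and the precision is limited by the number of arrays.

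The members, the 57 gene lists (1044 names, 947 found) and the tests were chosen with earlier results of these data known. Named genes are, by rule, up to 6 members of a list in each direction past 2-fold, defining members, the 25 genes in each direction with the largest difference on which all of 2 or more probe sets agree, the 4 genes the study picked, and examples of disagreeing probe sets. Other floors (35th and 65th percentile), scalings, probe set rules and folds were tried.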

Additional observations from a re-analysis of the deposited data

Results flagged for a closer look

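Probe sets that carry no single gene name entered no list. Of 10092 such probe sets 4377 were measured, and 675 of them were at least 2-fold apart between the HA arrays, 349 higher and 326 lower on VILLIN-HA/CL4-TCR, or 15.4% against 15.1% of named genes, a share at the background. Of these, 209 were also at least 2-fold above the CL4-TCR array on the HA array where they were higher, which is 4.77% of the measured ones, against 6.46% of measured named genes. They were noted because no comparison above uses them, and their share is not above that of named genes.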

How the results depend on the processing

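Against 741 higher and 1081 lower genes, a floor at the 35th percentile gave 1968 lower genes and one at the 65th percentile 634. Bringing the arrays to 1 median gave 1370 higher and 665 lower. The median over the probe sets of a gene gave 488 higher. A fold of 3 gave 168 higher and 343 lower, and a fold of 1.5 gave 1976 and 2513. The scale of the added control RNA, chosen after seeing the data, gave 2096 and 475. Quantile normalization (801 and 950) and leaving out probe sets that can match several transcripts (640 and 966) stayed within 1.5 times of both counts. Among lists, that last choice left 7 of 14 measured galectin, S100 and annexin genes lower, from 13 of 22. The lower mitosis genes fell from 10 to 6 at equal medians, to 6 with the median over probe sets and to 1 on the control RNA scale. The median of the plasma cell markers turned from 1.02 to -0.02 at the 35th percentile floor. Leaving those multi-match probe sets out, the difference of Prf1 turned to 0.17 and that of Lyz1 to -0.64, and with the median over probe sets that of Cblb turned to 0.47. The cause was not tested. Of 130 called genes that the text names, 104 to 130 kept their call under each of these alternatives other than the folds. No paired analysis was possible because each group holds 1 array, and none could be left out. Signal over the floor limits what can be said of dim genes, whose folds are often bounds.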
